A study of Rattus norvegicus with 12 samples.

Results

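The miRNAs examined were those encoded inside the Hox gene clusters: miR-10a, miR-10b, miR-196a, miR-196b, miR-196c and miR-615. They were chosen by name, as every probe whose name, once the species prefix and any arm ending were removed, was one of these 6, and this gave 7 probes among the 420 rat miRNA probes of the assay, because both arms of miR-10a had a probe. Counts came from the NanoString nCounter platform, in which a short tag is ligated to each miRNA, the tagged molecule is hybridised to a colour-coded probe, and the codes are counted one molecule at a time without amplification. Platelet-depleted blood plasma was profiled from 12 female Wistar rats, each giving 1 sample. The 6 controls were not pregnant and were 110 to 269 days old, and the other 6 rats were killed in mid-pregnancy, at E14.5, and were 103 to 373 days old. A rice miRNA, osa-miR-414, was added to every plasma sample as a spike-in. The comparison asked whether these circulating miRNAs differed in pregnancy, and whether the other members behaved as miR-196c (probe rno-miR-196c) did.

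Hox genes encode transcription factors that give cells their position along the body axis, and the miRNAs embedded between them are expressed in similar regional domains. A miRNA is loaded into an Argonaute protein and pairs with messenger RNAs mainly through its seed, bases 2 to 8 from the 5′ end, which lowers the amount or the translation of the message. miR-196 is known for repressing Hox messages, Hoxb8 above all, and miR-10 lies close to the Hox4 genes. Plasma holds miRNAs released by many tissues, bound to proteins or enclosed in vesicles, so a lower plasma count from fewer contributing cells cannot be told apart from one due to less RNA released per cell.

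All 7 probes had an entry among the rat mature miRNAs of RefSeq (assembly GRCr8). The sequences are shown because the likeness between members sets what a probe has to tell apart, and the capitals mark the seed. Only the miR-10a probes were named with an arm. For the other probes the arm that the nCounter probe captured was not given in the sources used here (the study's separate RT-qPCR assay for miR-196c was for the 5p arm), and the 5p sequence (for miR-615, the mature sequence of that name) is shown beside them.
rno-miR-196a-5p: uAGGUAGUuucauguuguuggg
rno-miR-196b-5p: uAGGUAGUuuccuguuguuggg
rno-miR-196c-5p: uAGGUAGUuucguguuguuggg
rno-miR-10a-5p: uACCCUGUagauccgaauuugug
rno-miR-10b-5p: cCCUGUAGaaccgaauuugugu
rno-miR-10a-3p: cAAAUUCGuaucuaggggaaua
rno-miR-615: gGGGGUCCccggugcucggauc

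The 3 miR-196 sequences shared the seed AGGUAGU, which no other of the 693 mature names in the table carried, and each pair differed at 1 of 22 bases. Counting from 1 at the 5′ end of the first-named miRNA, the difference was G12A from miR-196c to miR-196a, G12C from miR-196c to miR-196b and A12C from miR-196a to miR-196b. Probes for these 5p arms would have to resolve a single internal base, and cross-hybridisation among the 3 was not tested. The annotated miR-10b-5p started 2 bases later than miR-10a-5p, so that their seeds were not the same, although the 21 bases they had in common differed only by U12A. The let-7 family was included as a relative by letters: AGGUAGU, the miR-196 seed, lay 1 base further along in let-7a-5p.
rno-let-7a-5p: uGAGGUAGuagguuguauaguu
rno-miR-100-5p: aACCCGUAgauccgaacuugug
miR-100, with miR-99a and miR-99b the relatives of miR-10, differed from miR-10a-5p at 3 aligned bases, C3A, U6C and U18C.

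On GRCr8 the miR-196c-5p sequence lay at chr10:81727561-81727582 on the plus strand, with Hoxb13 and Hoxb9 as the nearest protein-coding genes. miR-10a was in the same HoxB cluster between Hoxb5 and Hoxb4, its 5p arm at chr10:81779730-81779752 and its 3p arm at chr10:81779771-81779792, both on the plus strand. The HoxC cluster held miR-196a, between Hoxc10 and Hoxc9 at chr7:135988900-135988921 on the plus strand. It also held miR-615, inside the annotated spans of Hoxc6 and Hoxc5 at chr7:136030369-136030390 on the plus strand. miR-196b was in HoxA between Hoxa9 and Hoxa10, at chr4:82661149-82661170 on the minus strand. miR-10b was in HoxD within the span of Hoxd4, at chr3:80035886-80035907 on the plus strand.

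Depth varied more among the pregnant rats than among the controls. Counts summed over the 420 rat miRNA probes ranged from 6969 to 10176 in the controls, with a median of 9359, and from 5163 to 30301 in the pregnant rats, with a median of 11503. The 4 exogenous probes for which nothing had been added, osa-miR442, ath-miR159a, cel-miR-254 and cel-miR-248, served as background, and their mean was 7.25 to 15.75 counts per rat. Mean + 1 SD of these probes was 12.6 to 32.4 counts. As markers of other sources, the red blood cell list (3 of its 4 miRNAs measured) summed to 316 to 1243 counts in the controls and 56 to 4459 in the pregnant rats, the platelet list (4 of 4) to 95 to 208 and 42 to 997, the muscle list (4 of 4) to 85 to 164 and 64 to 301, and the liver list (2 of 2) to 142 to 2646 and 85 to 5730. None of the tested markers of these lists passed the test between the groups, and their part in the results was not tested.

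The 7 Hox cluster probes gave few counts. Their summed count was 50 to 98 in the controls (median 73.5) and 54 to 109 in the pregnant rats (median 69.5), or 0.718% to 1.01% of the miRNA counts in the controls and 0.360% to 1.39% in the pregnant rats. Counts of different probes were not compared with each other, since probes capture their targets with unequal efficiency.

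miR-196c was counted 13 to 31 times in the control rats (median 19) and 10 to 25 times in the pregnant rats (median 15). The ranges overlapped: the 3 lowest pregnant rats, with 10, 12 and 13 counts, were at or below the lowest control, and the highest count was in a control. Its mean was 20.5 ± 6.80 (SD, n = 6) in the controls and 16.5 ± 5.96 (SD, n = 6) in the pregnant rats, and these raw means did not differ beyond the spread between rats (exact permutation test, two-sided, p = 0.323). Over all rats of a group it collected 123 counts in the controls (95% Poisson interval 102 to 147) and 99 in pregnancy (80.5 to 121), intervals that cover counting error only.

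The paralogues of miR-196c did not show a common direction. miR-196a was counted 9 to 21 times in the controls (median 13.5) and 3 to 30 times in the pregnant rats (median 18). Both the lowest and the highest miR-196a count were in pregnant rats. miR-196b was counted 3 to 7 times in the controls and 2 to 7 times in the pregnant rats, with a median of 4.5 in both groups. The miR-196b groups thus covered almost the same range.

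miR-10a-5p, the arm usually treated as the guide strand, was counted 5 to 24 times in the controls (median 15.5) and 12 to 19 times in the pregnant rats (median 16). The pregnant values lay inside the control range. miR-10a-3p, from the opposite arm of the same hairpin, was counted 3 to 5 times in the controls (median 5) and 2 to 9 times in the pregnant rats (median 4.5). The miR-10a-3p control range lay inside the pregnant one. miR-615, which lies in HoxC, was counted 4 to 18 times in the controls (median 11.5) and 7 to 17 times in the pregnant rats (median 10.5). The groups overlapped over most of their range.

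miR-10b had the largest relative difference between group means in raw counts of the 7. It was counted 3 to 6 times in the controls (median 3.5) and 4 to 9 times in the pregnant rats (median 7). All 6 pregnant rats were at or above 4 counts, the control mean being 4 ± 1.26 (SD, n = 6) and the pregnant mean 6.83 ± 2.14 (SD, n = 6). The groups still overlapped between 4 and 6 counts (exact permutation test on raw counts, two-sided, p = 0.0368, not adjusted). It collected 24 counts in the controls (95% Poisson interval 15.4 to 35.7) and 41 in pregnancy (29.4 to 55.6).

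**Figure D1:**
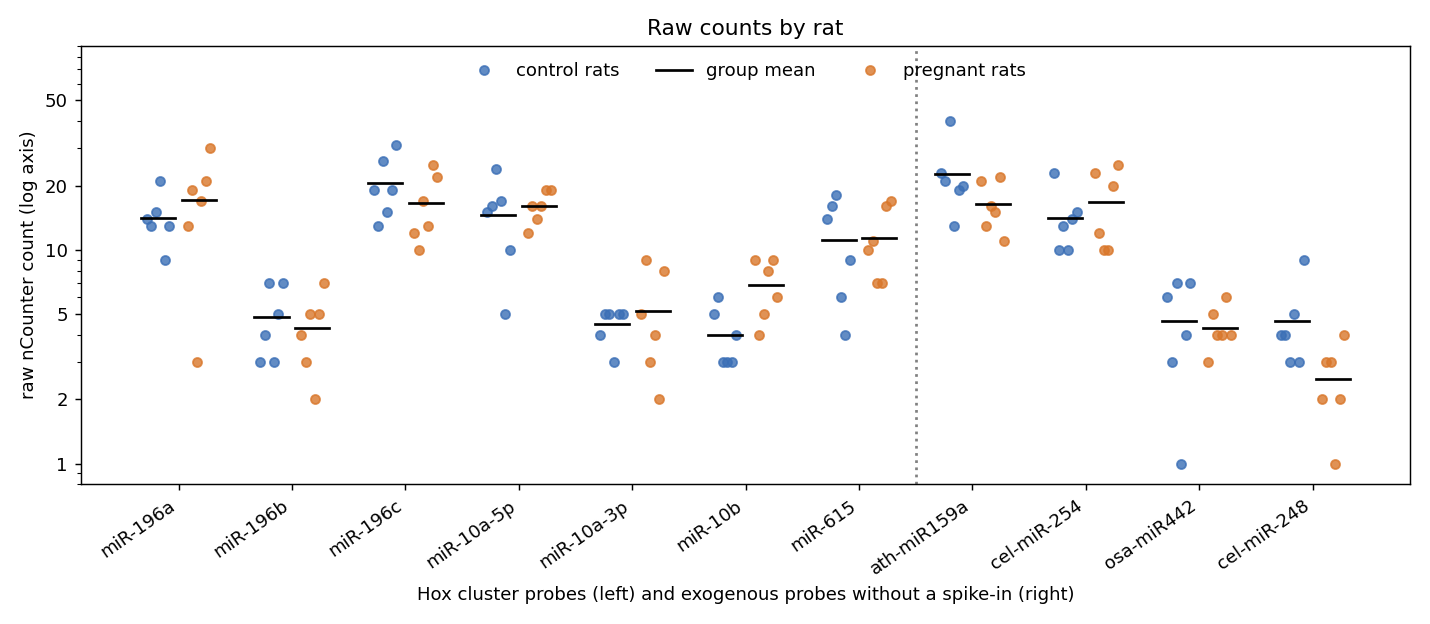
Raw nCounter counts (log axis) of the 7 Hox cluster probes and, right of the dotted line, the 4 background probes, with 1 point per rat, control rats in blue, pregnant rats in orange and a bar at each group mean. The groups overlapped for every Hox cluster probe, and no count of a Hox cluster probe exceeded 31.

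Most of these values were not above the level of the background probes. A probe was above mean + 1 SD in at least 6 rats for 93 of 420 miRNA probes (22.1%), and miR-196c was the one member to do so, in 6 rats, of which 3 were control and 3 pregnant. miR-196a was above it in 4 rats and miR-10a-5p in 3. The other members, miR-10a-3p, miR-10b, miR-196b and miR-615, were above it in 0 rats, as were 230 of 420 probes (54.8%). Against mean + 2 SD, miR-196c was above background in 1 rat and miR-196a in 2. For comparison, ath-miR159a, itself a background probe, was above mean + 1 SD in 7 rats. The difference in miR-10b between groups was therefore between counts that were below this background limit in all 12 rats.

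The variance of raw counts over the 12 rats, divided by the mean, would be near 1 for counting error alone. It was 0.653 for miR-196b, 0.821 for miR-10a-3p and 0.922 for miR-10b, the 3 members with the lowest counts. It was 1.52 for miR-10a-5p, 2.06 for miR-615, 2.25 for miR-196c and 2.93 for miR-196a. The background probes spanned 0.707 to 2.95 on the same measure, so the spread of every member except miR-196b lay inside that of probes without a target.

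Pregnant and control rats were compared across all probes with edgeR's quasi-likelihood test on the counts, after scaling each rat by TMM (trimmed mean of M values, which sets the rats on a common level from the bulk of the probes) and keeping probes counted 10 times or more in 6 rats or more. This left 187 of 420 probes (44.5%), among them miR-10a-5p, miR-196a, miR-196c and miR-615. miR-10a-3p, miR-10b and miR-196b were outside the filter and are given from the same fit on all 420 probes. Values are log2 fold changes of pregnant over control, on the CPM scale (counts divided by the scaled total of the rat), where 1 count corresponded to 69.2 to 135 CPM depending on the rat.

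0 of the 4 tested members were called at an adjusted p under 0.05, against 0 of 187 probes (0%) in the whole assay, and 0 of the 4 passed an unadjusted p under 0.05, against 11 of 187 (5.88%). In 8 of 26 alternative fits, library size, NormFinder and younger rats alone among them, miR-196c passed the unadjusted threshold and no probe was called. In each of the fits named, 13 of 187 probes passed that threshold. miR-10b, outside the filter and higher in the pregnant rats, also passed it in some alternative fits, again without a call. Scaling by the background probes was one (edgeR, unadjusted p = 0.0118), where 31 of 187 tested probes passed but miR-196c did not. Another was the fit without control replicate 2 (edgeR, unadjusted p = 0.0247), where miR-196c passed too. DESeq2 and limma-voom also called 0 probes at an adjusted p under 0.05, with 8 and 6 at an unadjusted p under 0.05. Of the tested members 2, miR-196a and miR-10a-5p, were above 0 and 2 below, with a median of -0.02, and library size scaling put all 4 below 0, while scaling by the background probes put 3 above 0. All tested probes had a median of 0.05 with 104 above 0 and 83 below.

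With TMM scaling, miR-196c had the largest difference among the tested members, and with scaling by the background probes the smallest. Its level was 2198 ± 600 CPM in the controls and 1643 ± 316 CPM in the pregnant rats (SD, n = 6 each), and 5 of 6 pregnant rats were below the control mean. The log2 fold change was -0.42 with a standard error of 0.21 (edgeR, adjusted p = 0.732), which did not pass the test. The study's RT-qPCR reported the opposite direction, with miR-196c significantly higher in pregnancy. The paper counts it among the few changes that RT-qPCR upheld. Its RT-qPCR values were normalised to miR-20a and miR-27b. Why the counts and that assay differed was not tested. In the TMM fit of the counts, miR-196a stood at 0.15 with a standard error of 0.31. There miR-10a-5p stood at 0.06 with a standard error of 0.27 and miR-615 at -0.09 with a standard error of 0.28. All of these had an edgeR adjusted p = 0.967. On the fit over all probes, miR-10b stood at 0.70 with a standard error of 0.33 (edgeR, adjusted p = 0.835). On the same fit miR-196b stood at -0.22 with a standard error of 0.31 and miR-10a-3p at 0.14 with a standard error of 0.37, both with an edgeR adjusted p = 0.996. On that fit 0 of 420 probes were called (0%) and 20 passed an unadjusted p under 0.05 (4.76%).

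**Figure D2:**
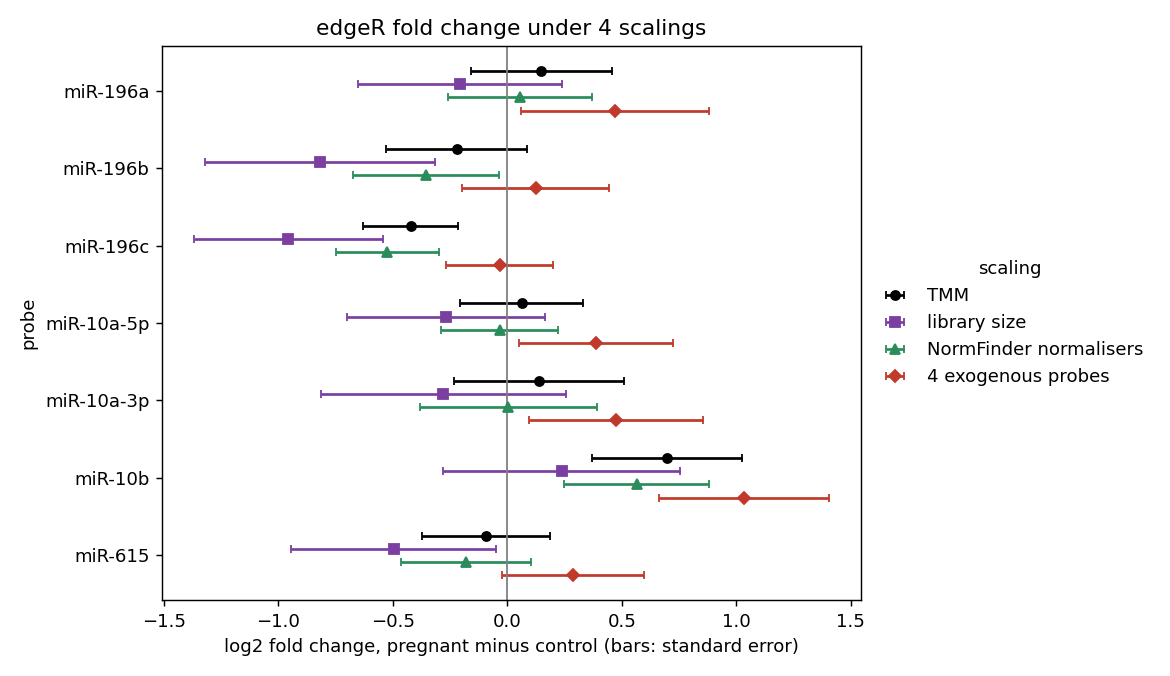
Log2 fold change of pregnant over control rats (points) with its standard error (bars, edgeR) for the 7 Hox cluster probes under 4 scalings, the 4 exogenous probes being the background probes. miR-196c lay at or below -0.03 and miR-10b at or above 0.24 under all 4 scalings drawn, while the other 5 probes had points on both sides of 0.

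The size of the miR-196c difference followed the scaling. It was -0.42 with TMM, -0.52 when scaled by the 5 most stable miRNAs (edgeR, adjusted p = 0.651) and -0.96 when scaled by library size alone (edgeR, adjusted p = 0.566), a setting that also moved the median of the tested probes to -0.33. When the rats were scaled by the 4 background probes, the fold change of miR-196c was -0.03 with a standard error of 0.23 (edgeR, adjusted p = 0.941), and the median of the tested probes was 0.38. Relative to the median of the tested probes, the miR-196c difference was -0.47 with TMM and with the 5 most stable miRNAs. It was -0.63 with library size and -0.41 with the background probes. Within each lane, the log2 count of miR-196c exceeded the mean log2 count of the 4 background probes by 1.23 ± 0.30 in the controls and 1.16 ± 0.43 in the pregnant rats (SD, n = 6 each), a difference of -0.07 (exact permutation test, two-sided, p = 0.708). For miR-10b the same in-lane difference was 1.02 (exact permutation test, two-sided, p = 0.0152, not adjusted over the 7 members compared), and for the other 5 members it was 0.08 to 0.54. The mean log2 count of the background probes itself was lower in the pregnant rats by 0.26 (exact permutation test, two-sided, p = 0.275).

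The relatives by sequence gave no call. miR-99a, the one tested relative of miR-10, stood at -0.41 with a standard error of 0.17 (edgeR, adjusted p = 0.670), passing the unadjusted threshold, with 6 of 6 pregnant rats below the control mean. On the fit over all probes miR-100 stood at -0.26 and miR-99b at 0.07. Of let-7 and miR-98, a family known for restraining proliferation, 7 of 8 probes were tested, 4 were higher and 3 lower, with a median of 0.10, 0 were called, and let-7f was the one of these to pass the unadjusted threshold, at 0.43 with a standard error of 0.18 (edgeR, adjusted p = 0.670).

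Age was uneven, with 4 older rats of 239 to 373 days, 2 in each group, and 8 younger rats of 103 to 112 days. With pregnancy in the model, 0 of 187 probes were called between older and younger rats (0%), 0 members among them, and 12 passed an unadjusted p under 0.05 (6.42%). miR-196a was counted 3 to 14 times in the older rats and 9 to 30 times in the younger ones. Its mean was 10.8 ± 5.19 (SD, n = 4) against 18.1 ± 6.31 (SD, n = 8), and the log2 fold change of older over younger was -0.59 with a standard error of 0.32 (edgeR, adjusted p = 0.728). miR-196c stood at -0.22 with a standard error of 0.22 (edgeR, adjusted p = 0.754). The other members stood between -0.15 and 0.48. Whether the pregnancy difference itself depended on age was tested as an interaction: 0 of 187 probes were called (0%), 0 members among them, and 9 passed an unadjusted p under 0.05 (4.81%). For miR-196c the interaction stood at 0.67 with a standard error of 0.43 (edgeR, adjusted p = 0.729). In the 8 younger rats alone the pregnancy difference in miR-196c was -0.65 (edgeR, adjusted p = 0.570).

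Whether the members followed miR-196c from rat to rat was described by Pearson's r and Spearman's rho of their log2 CPM over the 12 rats, which share lanes and depth. With 186 tested probes compared, 0 reached an adjusted p under 0.05 (0%), 89 had an r above 0 (47.8%) and the median r was -0.01. Of the 6 other members, miR-196b had an r above 0 and the others had an r below 0.

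miR-196b had an r of 0.64 with miR-196c (permutation p = 0.0249, adjusted p = 0.972) and a rho of 0.50 (permutation p = 0.105). Without the 2 rats farthest from the median of miR-196c, control replicates 3 and 6, r was 0.38, over a narrower range of miR-196c. On leaving out any single rat r was 0.54 to 0.70. Within the controls it was 0.79 and within the pregnant rats 0.30. These values rest on 2 to 7 counts per rat, close to the counting limit, and a correlation of this kind in sparse counts is a description. Raw log2 counts, not log2 CPM, of miR-196b and miR-196c had an r of 0.59 and 0.65 with the mean of the background probes over the 12 rats. On the same measure miR-615 had 0.58, and its log2 CPM had an r of -0.33 with miR-196c. The remaining members had 0.03 to 0.14. These values are given as a description, and the part of background in the correlations was not tested.

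miR-196a, whose sequence differs from that of miR-196c by the single base named above, had an r of -0.44 (permutation p = 0.151) and a rho of -0.58 (permutation p = 0.0520), and without the 2 farthest rats r was -0.59. It was below 0 within the controls, at -0.52, and within the pregnant rats, at -0.71. miR-10b had an r of -0.52 (permutation p = 0.0828) and a rho of -0.52 (permutation p = 0.0894). Without the 2 farthest rats its r was -0.33. miR-10a-5p had an r of -0.38 (permutation p = 0.224) and a rho of -0.15 (permutation p = 0.633), miR-615 an r of -0.33 (permutation p = 0.292) and a rho of -0.42 (permutation p = 0.176), and miR-10a-3p an r of -0.22 (permutation p = 0.494) and a rho of -0.36 (permutation p = 0.257). The signs depended on the scaling: on raw log2 counts the r with miR-196c was 0.75 for miR-196b, 0.23 for miR-615 and 0.03 for miR-196a, where the median over all tested probes was 0.40. With library size as the scaling, 102 of 189 probes were called and the median r was 0.65, and miR-196b was the one member called (r = 0.87, permutation test, adjusted p = 0.00701).

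**Figure D3:**
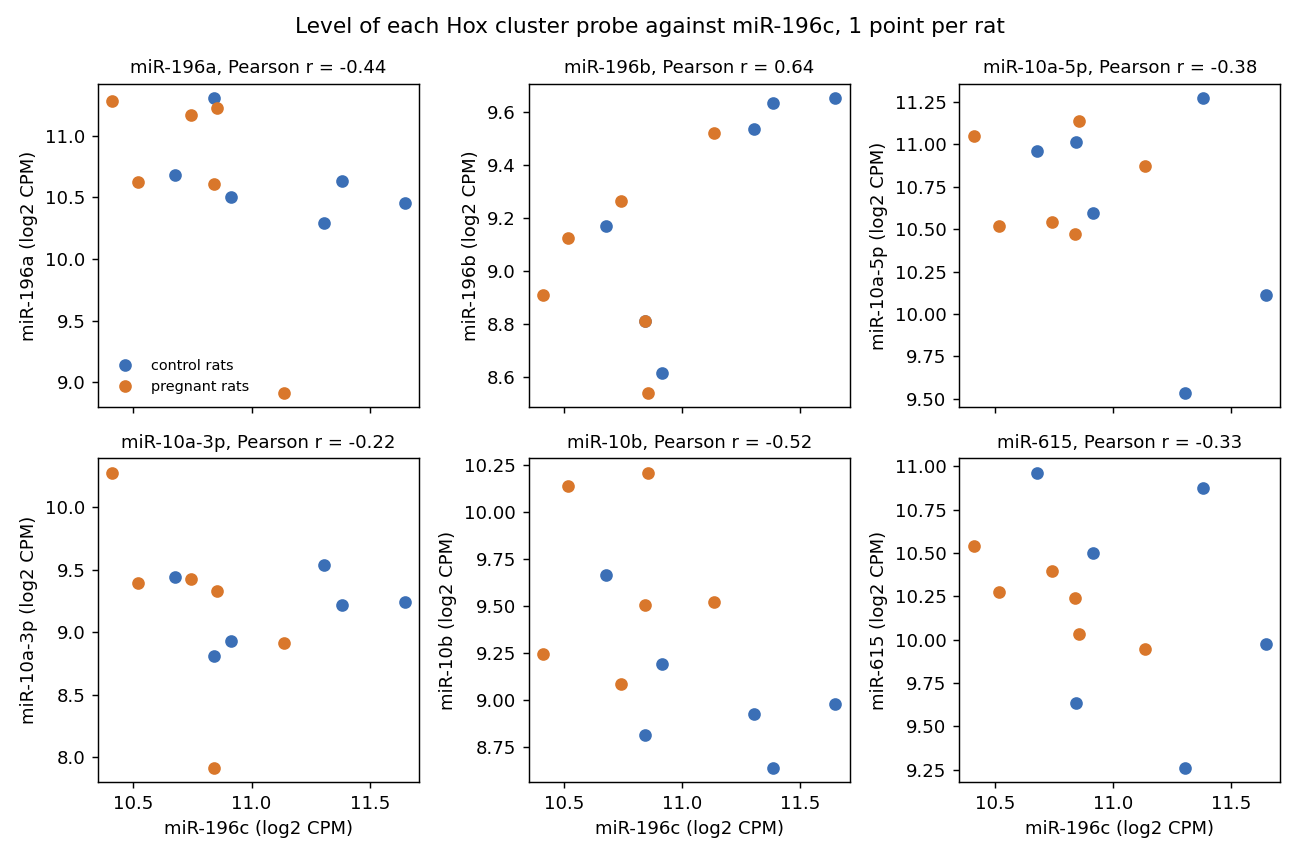
Level of each of the other 6 Hox cluster probes (vertical axes, log2 CPM) against that of miR-196c (horizontal axes, log2 CPM), with 1 point per rat, control rats in blue and pregnant rats in orange. Pearson's r was 0.64 for miR-196b and between -0.52 and -0.22 for the other 5, and 1 pregnant rat lay far below the rest for miR-196a.

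The 5 probes most like miR-196c among those tested were miR-433, miR-7a, miR-3553, miR-206 and miR-16, with an r of 0.75, 0.72, 0.52, 0.50 and 0.49. Without the 2 farthest rats r was 0.60 for miR-433, 0.46 for miR-7a, 0.24 for miR-3553, -0.03 for miR-206 and 0.61 for miR-16. None of these 5 is a Hox cluster miRNA, but miR-196b, outside the filter, had a higher r (0.64) than miR-3553. miR-433 had the smallest p of all (permutation p = 0.0048, adjusted p = 0.626) with a rho of 0.77. miR-206 is a muscle miRNA and miR-16 is abundant in red blood cells. The other tested probes of those marker lists had lower values. For muscle, r with miR-196c was 0.13 for miR-1 and -0.10 for miR-133a. For red blood cells it was 0.36 for miR-451 and -0.07 for miR-144.

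A ratio taken within a lane does not depend on scaling. The log2 ratio of each probe to miR-196c was compared between the groups with an exact permutation test over all assignments of the rats to the groups, whose smallest possible p is 0.00216. 0 of 186 tested probes were called (0%) and 16 passed an unadjusted p under 0.05 (8.6%), and 173 of 186 had a higher ratio in the pregnant rats, with a median of 0.41, all of them sharing miR-196c as the denominator.

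Against this median the members were spread on both sides. The ratio of miR-10b to miR-196c was -2.35 ± 0.74 on the log2 scale in the controls and -1.26 ± 0.58 in the pregnant rats (SD, n = 6 each), and all 6 pregnant rats lay above the control mean. The difference was 1.09 with a standard error of 0.39 (exact permutation p = 0.0238, adjusted p = 0.434 over all probes). After subtraction of the background mean it was 0.72 (exact permutation p = 0.335). miR-10b was then at the lowest allowed value in all 12 rats, so this difference came from miR-196c alone. miR-10a-5p followed with a difference of 0.60 and a standard error of 0.42 (exact permutation p = 0.229, adjusted p = 0.545), higher in 6 of 6 pregnant rats than the control mean. The differences were 0.45 for miR-615, 0.37 for miR-196a, 0.36 for miR-10a-3p and 0.15 for miR-196b, with exact permutation p values from 0.323 to 0.539 unadjusted.

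**Figure D4:**
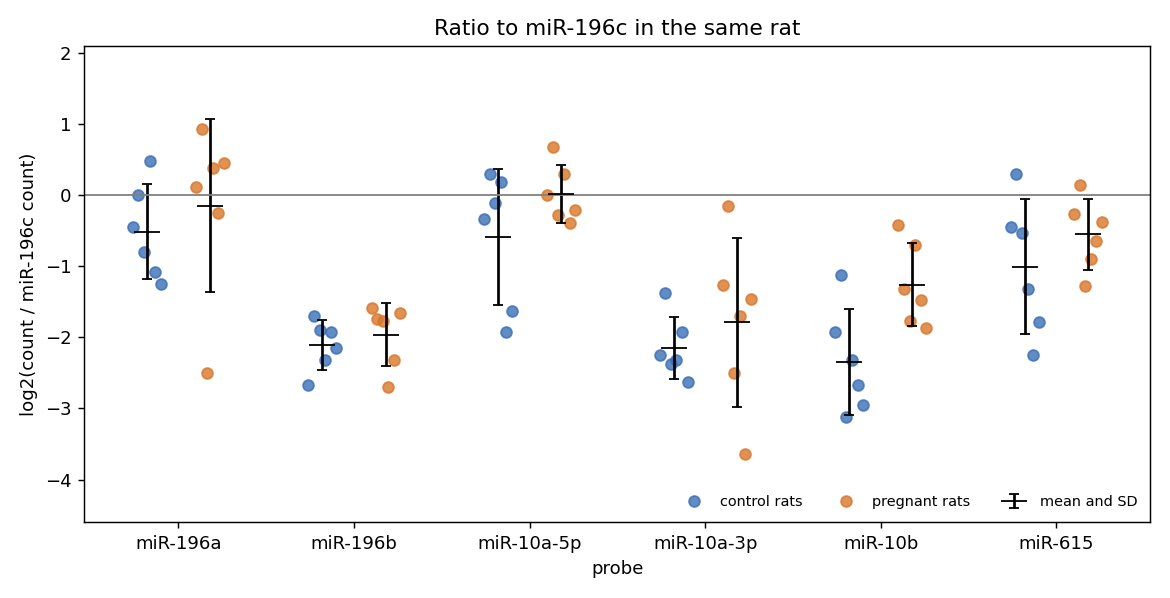
Log2 ratio of each of the other 6 Hox cluster probes to miR-196c in the same lane, with 1 point per rat, control rats in blue, pregnant rats in orange, and the mean and SD of each group. The mean miR-10b ratio was -2.35 in the controls and -1.26 in the pregnant rats, and the groups overlapped for every ratio.

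The counts were also taken through 14 processing workflows of the kind used in the nSolver software. They differed in the normaliser set (5 stable miRNAs chosen by the NormFinder method or 38 chosen by the total RNA method) and in the background step (none, subtraction or thresholding, at the mean, mean + 1 SD or mean + 2 SD). No member was among the normalisers. By the methods' t-test at an unadjusted p under 0.05, 0 members were called in any workflow, where 63 of 5880 probe and workflow combinations were (1.07%). The paper's own nSolver runs differed, calling miR-196c as higher in controls in the 2 thresholding workflows at the mean. Those runs used the assay's positive and negative controls and other normaliser sets. When the paper recalculated the nSolver steps, the miR-196c call was reproduced with total RNA normalisers but not with NormFinder ones. The recalculation also gave a significant miR-196c change without background correction that nSolver had not called. On leaving out single rats in the workflows run here, calls among the 98 member and workflow values numbered 8 without pregnant replicate 2 (8.16%, against 7.86% of all 5880 values) and 4 without control replicate 1 (4.08%, against 5% of all). Of these, 5 of the 8 and all 4 were values with every rat at the lowest value of its lane. There were 3 calls without control replicate 2 (3.06%, against 1.17%), and 2 each without pregnant replicates 3 (2.04%, against 0.867%) and 5 (2.04%, against 0.884%). Among all probes the share called was 2.62% and 1.67% without background correction. It was 1.9%, 1.43%, 1.43%, 0.476%, 0.476% and 0.714% in the 6 subtraction workflows and 0%, 0.714%, 2.62%, 0.238%, 0.476% and 0.238% in the 6 thresholding workflows.

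miR-196c was lower in the pregnant rats in 14 of 14 workflows, by a log2 ratio of means from -1.30 to -0.25. This direction was shared with miR-196b, lower in 14 of 14 although all its rats were at the background value in 12. miR-615 was lower in 13, with all its rats at that value in 5, and miR-10a-3p in 11, with all its rats at that value in 8. With NormFinder normalisation and no background step miR-196c was 22.1 ± 6.95 in the controls and 15.2 ± 3.31 in the pregnant rats (SD, n = 6 each, exact permutation p = 0.0584). With NormFinder normalisation and subtraction of mean + 2 SD it was 2.12 ± 2.19 against 0.919 ± 0.188 (exact permutation p = 0.0368), and 11 of 12 rats were then at the background value. In that workflow miR-196b, with all 12 rats at background, was 1.20 ± 0.263 against 0.919 ± 0.188 (exact permutation p = 0.0736). There miR-196a, with 11 of 12 rats at background, was 1.54 ± 0.745 against 0.919 ± 0.188 (exact permutation p = 0.0238). By the exact test, 18 of 420 probes had an unadjusted p under 0.05 in that workflow. With the total RNA normalisers and the same subtraction, miR-196c was 2.59 ± 2.76 against 1.34 ± 1.03 (exact permutation p = 0.396). miR-196a was lower in 5 workflows and higher in 9. miR-10b was higher in the 2 workflows without background correction and lower in the 12 with it, in 10 of which all 12 rats were at the background value, as was miR-10a-3p in 8 workflows. Where all rats sit at background, a probe carries the background itself under thresholding. Under subtraction it carries the lowest allowed value multiplied by the normaliser factor of the rat. Members in that state share one set of values within a workflow, and their direction is not their own.

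**Figure D5:**
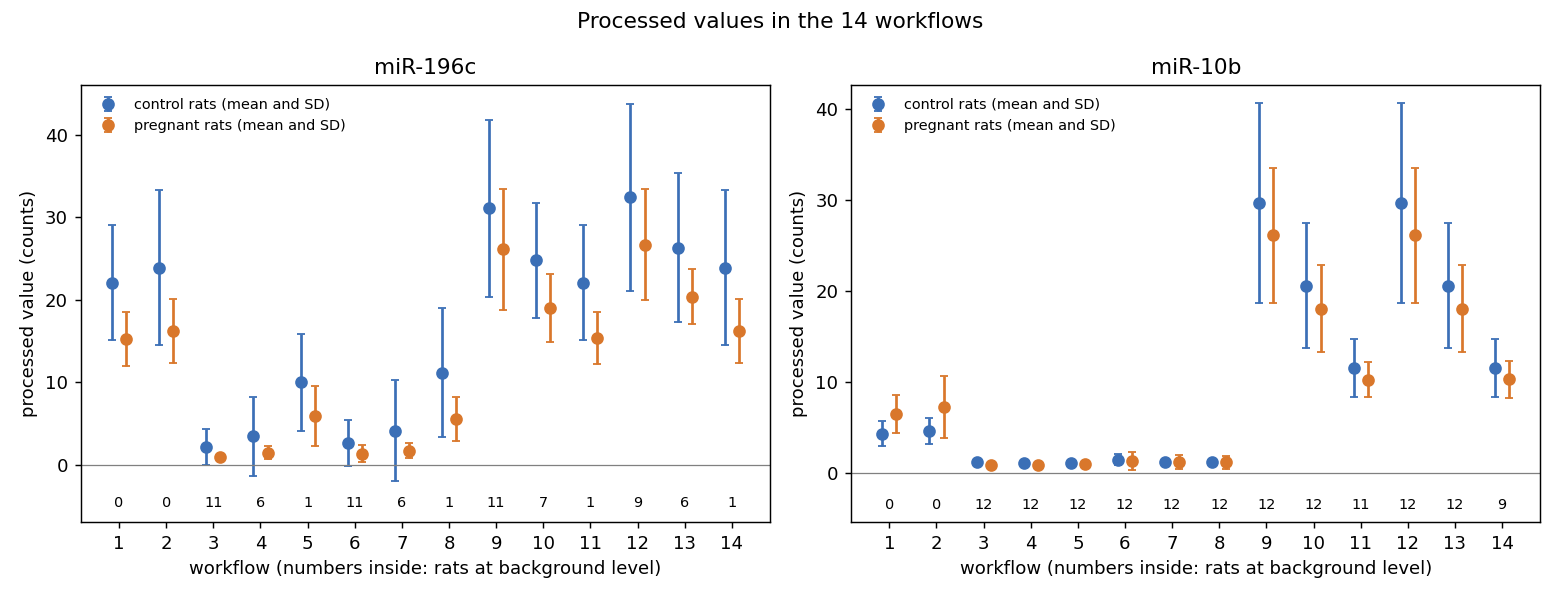
Processed values (counts) of miR-196c and miR-10b in the 14 workflows, as the mean and SD of the 6 control rats (blue) and the 6 pregnant rats (orange), with the number of rats at the background value printed below. Workflows 1 and 2 have no background correction, 3 to 8 subtract it and 9 to 14 apply it as a threshold. The miR-196c mean was lower in the pregnant rats in all 14, and the miR-10b mean was higher in the first 2 and lower in the other 12.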

How the data were processed

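Total RNA from 1.5 ml of plasma per rat was profiled with the rat v1.5 miRNA codeset on 12 lanes. The values used here are the raw counts that the authors deposited, whole numbers of at least 1 without background correction or normalisation. The table held 429 probes: 420 rat miRNAs, 5 exogenous miRNAs and 4 housekeeping mRNAs. The assay's negative, positive and ligation controls were not used here, so background was taken per rat from 4 exogenous probes whose miRNAs had not been added (their mean, with 1 or 2 SD on top), and the workflows do not reproduce nSolver values exactly. There were 0 unused columns of sample values. Groups came from the sample titles, ages from the labels, and 0 of 66 pairs of rats had identical counts.

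Counts were fitted in edgeR 4.0.16 (quasi-likelihood test, TMM, R 4.3.3) with pregnancy as the term, after keeping probes counted at least 10 times in 6 rats or more, and p-values were adjusted by Benjamini-Hochberg over all probes of the fit. DESeq2 1.42.0, limma 3.58.1 (voom), an exact permutation test of log2 CPM, other scalings and filters, a replicate block, the younger rats alone and leaving out each rat were alternatives. TMM on the total of all 420 probes and scaling by the 4 exogenous probes were added after seeing the data. Correlations used 100000 permutations, with fewer for their alternative settings, and group differences in ratios used exact permutation tests (scipy 1.17.1). Named probes were those chosen by name, the 5 most like miR-196c, the relatives by sequence and the exogenous probes. Members and lists were chosen with earlier results of these data known. Sequences came from RefSeq tables for GRCr8. Counting intervals are exact Poisson intervals at 95%.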

Additional observations from a re-analysis of the deposited data

Results flagged for a closer look

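Among the pregnant rats, replicate 3 was set apart from the others for rno-miR-196a. Its level was 8.91 log2 CPM (3 counts), while the next lowest pregnant rat was at 10.60, and this gap was 0.713 of the whole range of the group, above Dixon's 95% critical value for 6 samples. Both groups were examined for each of the 7 probes, 14 groups in all, and this was the 1 group with such a rat, where chance gives about 1 in 20. That rat was also the oldest, at 373 days. Without it the pregnant over control log2 fold change of miR-196a was 0.31 in place of 0.15 (edgeR, adjusted p = 0.858), and its r with miR-196c over the other rats was -0.56 in place of -0.44.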

How the results depend on the processing

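Under the alternative fits, 0 Hox cluster probes were called between pregnant and control rats at an adjusted p under 0.05. In each fit rno-miR-196c was below 0 and rno-miR-10b above 0. The workflows kept this direction for miR-196c, lower in 14 of 14, but not for miR-10b, higher in 2 and lower in 12. Among the fits, the values near 0 changed sign. Library size scaling gave -0.28 for miR-10a-3p, -0.27 for miR-10a-5p and -0.21 for miR-196a. For miR-10a-5p total RNA normalisers gave -0.0028, NormFinder normalisers -0.0342 and TMM on all 420 probes -0.0041. Scaling by the background probes gave 0.12 for miR-196b and 0.29 for miR-615. limma-voom gave -0.0276 for miR-10a-3p and 0.0344 for miR-615, the log2 CPM means of the exact permutation test -0.0065 for miR-196a and 0.0367 for miR-615, and the younger rats alone 0.20 for miR-615. Leaving out each rat gave -0.15 to 0.38 for miR-10a-3p, -0.14 to 0.23 for miR-10a-5p, -0.0375 to 0.32 for miR-196a and -0.30 to 0.0672 for miR-615. In the older minus younger difference, the pregnant rats alone gave -0.0570 for miR-10a-5p, 0.47 for miR-196b, 0.17 for miR-196c and -0.17 for miR-615, and library size scaling -0.13 for miR-10a-5p. The r with miR-196c under library size scaling was 0.62 for miR-10a-3p, 0.43 for miR-10a-5p, 0.25 for miR-10b, 0.43 for miR-196a and 0.47 for miR-615, with 1 member called. On raw counts it was 0.0324 for miR-196a and 0.23 for miR-615. Within the controls it was 0.28 for miR-10a-3p, and within the pregnant rats 0.0420 for miR-10a-5p and 0.0403 for miR-10b. Leaving out each rat gave -0.42 to 0.0800 for miR-10a-3p. The ratio of miR-196b to miR-196c was -0.0309 in the younger rats alone. The causes were not tested.

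Over the members and rats, 13 values were above mean + 1 SD of background, 35 above the mean, 3 above mean + 2 SD, and 25 with the mRNA probes as background. Over the 98 member and workflow values, 0 calls became 2 with the exact permutation test (2.04%, against 1.55% of all probes' values), 6 with 5 exogenous probes as background (6.12%, against 5.87%, all 6 with every rat at the lowest value of its lane) and 0 to 8 on leaving out each rat (8 without pregnant replicate 2, 8.16%, against 7.86%). Same-numbered rats had deviations that correlated at -0.33 to 0.26, so the numbers were not taken as pairs. With a replicate block miR-196c was -0.42 (edgeR, adjusted p = 0.980) and 0 probes were called, 3 passing an unadjusted p under 0.05. With 2 to 31 counts per value, depth limits all of these measurements.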

Other observations

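Of the background probes, ath-miR159a was counted 22.7 ± 9.14 times in the controls and 16.3 ± 4.37 times in the pregnant rats (SD, n = 6 each). osa-miR-414, the spike-in, was above mean + 1 SD of the background probes in 6 of 12 rats and was counted 6 to 44 times.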
